A study of Mus musculus with 12 samples.

Results

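The response of pituitary RNA to the ligand AA14 was compared between mice that carried a control virus and mice that carried a cre virus, over all 12 of the 12 libraries of the study. The libraries were assigned to 4 groups of 3 by their titles. The groups are called ctrl_vehicle and ctrl_AA14 (genotype Cga-ctrlAAVGpr101fl/fl, given control vehicle or AA14) and cre_vehicle and cre_AA14 (genotype Cga-creAAVGpr101fl/fl, given control vehicle or AA14). All mice were of the C57BL/6 strain, all carried the floxed Gpr101 gene and a virus, and each treatment lasted 1 week. The pituitaries were dispersed into cells and passed to flow cytometry, and the labels do not say whether RNA came from sorted cells. The labels do not say whether the 3 libraries of a group came from separate mice, so each p-value measures the spread between libraries, which may be technical.

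Gpr101 is an orphan G protein-coupled receptor that signals through the stimulatory G protein Gs, and an excess of it in the pituitary is known as a cause of growth hormone excess. Gs activates adenylyl cyclase, the cyclic AMP that forms activates protein kinase A, and that kinase phosphorylates CREB, a factor that binds the promoter motif TGACGTCA. The virus is named for Cga, the glycoprotein hormone alpha subunit gene, which is active in gonadotrophs and thyrotrophs, the cells that make Lhb and Fshb or Tshb. Somatotrophs, lactotrophs and corticotrophs, which make Gh, Prl and Pomc, are in the same libraries, and the labels do not say in which cells cre acted. In RNA from a whole tissue, fewer cells of a type cannot be told apart from less RNA per cell.

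The libraries held between 48693682 and 73388221 counts, of which the 7 hormone genes, the defining markers of the anterior pituitary, took 17.6% to 30.8%. In 3 ways they differed beyond their groups. The 3 ctrl_AA14 libraries, cre_vehicle 1 and cre_AA14 2 were rich in Malat1, a long noncoding RNA held in the nucleus, at 1105 to 1560 CPM, that is counts scaled to library size, against 199 to 549 CPM elsewhere. Transcripts of nerve and of the posterior lobe were high in ctrl_vehicle 3, oligodendrocyte markers were high in that library, in cre_vehicle 2 and, less so, in ctrl_AA14 1, and stress transcripts were high in cre_AA14 1. With the control virus, Malat1 state and treatment coincide, so the ligand response and that state cannot be told apart there, and no state holds both control-virus groups for a comparison within it. Gpr101 itself was low in all libraries, and a fall with the cre virus was not detectable. It had a mean of 2.32 CPM in the 6 cre libraries and 5.18 CPM in the 6 control-virus libraries (log2 difference -0.64, exact two-sided permutation p = 0.303), and the log2 difference without ctrl_vehicle 3 was -0.23 (exact permutation p = 0.604).

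The interaction is the log2 fold change of AA14 over vehicle with the control virus, minus the same fold change with the cre virus. A positive value means that AA14 libraries stood higher over vehicle, or less far below it, with the control virus than with the cre virus. In edgeR's quasi-likelihood test of this interaction over 22630 genes, 1 gene (0.00442%) passed an adjusted p under 0.05. It was Gm47308 (ENSMUSG00000104953), annotated as a microRNA gene on the minus strand of chromosome 9, from 64726624 to 64726730 in GRCm38. All of its 107 bases lie inside an exon of Rab11a on the same strand. Rab11a spans 64715299 to 64737758 and encodes the GTPase of recycling endosomes. Of the 6 Rab11a transcripts whose exons overlap the annotation, 5 code for protein there. The stretch from 64726624 to 64726696, which is coding in all 5, is printed because the single call rests on reads counted in bases that also code for Rab11a (chr9:64726624-64726696, minus strand, 5′ to 3′).
Gm47308: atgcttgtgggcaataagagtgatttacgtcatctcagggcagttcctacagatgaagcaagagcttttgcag

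Gm47308 had 2 counts in each ctrl_vehicle library, 305, 355 and 298 counts in ctrl_AA14, 205, 364 and 392 in cre_vehicle, and 432, 241 and 330 in cre_AA14. On the CPM scale that was 0.0295, 0.0284 and 0.0275 in ctrl_vehicle and 4.15 to 6.62 in the other 9 libraries. The ctrl_vehicle libraries thus stood apart from all other libraries, and the 2 cre groups overlapped each other. The interaction was 7.04 (SE 0.41, edgeR adjusted p = 4.36e-05), made up of a log2 fold change of 7.23 (SE 0.34) with the control virus and of 0.19 (SE 0.24) with the cre virus. Summed over libraries, the ratio of the other 9 to ctrl_vehicle was 179 after scaling to library size, and its 95% interval for counting error alone ran from 82.3 to 489. Across the alternative fits the adjusted p ran from 9.08e-21 in DESeq2 to 0.0507 in limma-voom, where it missed the threshold.

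Rab11a, the gene around it, had a smaller interaction of the opposite sign. Its level was 118, 108 and 108 CPM (ctrl_vehicle), 78, 84.3 and 76.1 CPM (ctrl_AA14), 78.2, 88.2 and 88.9 CPM (cre_vehicle) and 107, 79.3 and 95.6 CPM (cre_AA14). The ctrl_vehicle libraries lay above the rest, but only just, with the lowest at 108 CPM against 107 CPM in cre_AA14 1. The interaction of Rab11a was -0.63 (SE 0.19, edgeR adjusted p = 0.631). The sources used here do not give how reads in an exon of both genes were assigned, and the count of Gm47308 is uncertain.

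**Figure D1:**
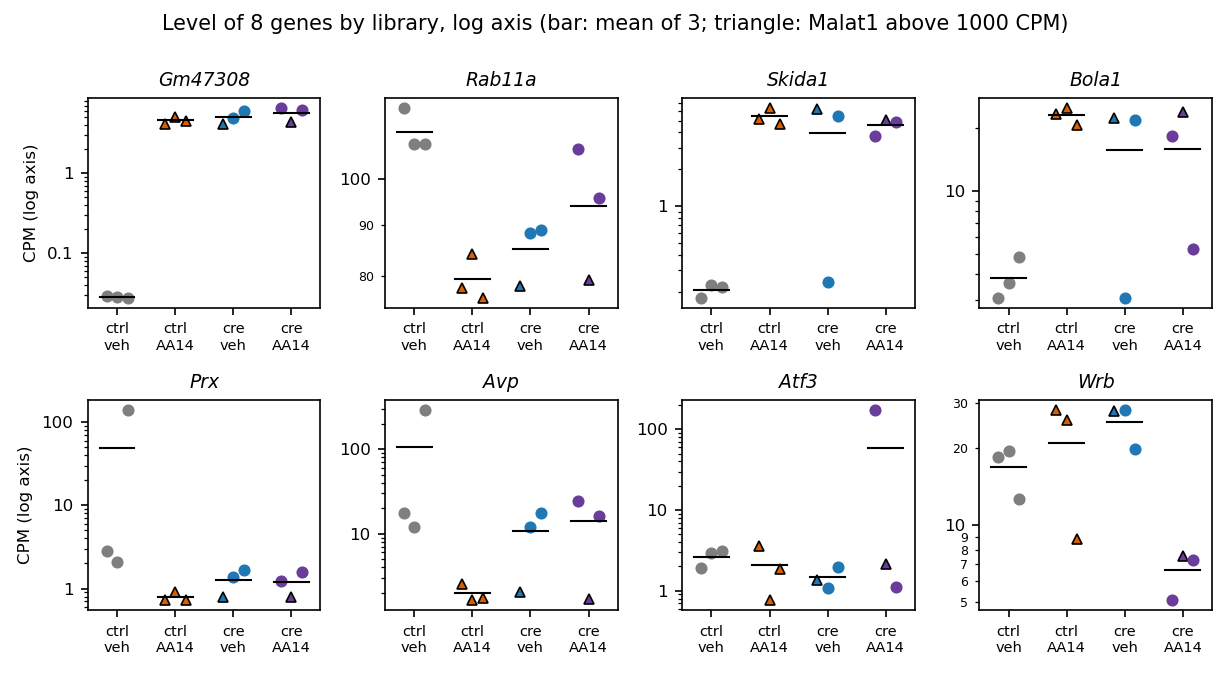
CPM on a log axis (vertical) in each of the 12 libraries (points), by group (horizontal), for 8 genes, with a bar at the mean of 3 libraries and triangles for the 5 libraries with Malat1 above 1000 CPM. Gm47308 is near 0.03 CPM in the 3 ctrl_vehicle libraries and at 4.15 to 6.62 CPM in the other 9, while Prx, Avp and Atf3 each have 1 library far above the rest.

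An unadjusted p under 0.05 was reached by 1591 genes (7.03% of those tested), against 1132 that chance alone would give. Of these, 492 had a positive interaction (2.17% of the genes tested) and 1099 a negative one (4.86%), so that 30.9% were positive, a share that was 41.5% with upper-quartile size factors. Over all 22630 genes, 47.7% of the interactions were positive, 52.3% were negative and the median was -0.03. Which sign was in the majority among genes at that p depended on the setting. Positive interactions made up 62.2% with Malat1 as a term, 52.9% with a GC trend term, 53.8% with that term and the replicate block, and 51.3% without the libraries with oligodendrocyte markers above 5 (mean log2 level), ctrl_vehicle 3 and cre_vehicle 2. The fit without ctrl_vehicle 3 and cre_AA14 1, the libraries rich in nerve or stress transcripts, had 922 genes at that p, of which 434 were among the 1591, and 66.5% of the 922 were positive. In every other alternative, the fits without a single library included, 28.5% to 45.7% were positive.

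Most of the 1591 genes had a response to AA14 with the control virus and none at this p with the cre virus. That was so for 1248 of them (78.4%), 335 with a positive and 913 with a negative interaction. Another 127 (7.98%) had a response with the cre virus only, 20 (1.26%) had responses of opposite sign with the 2 viruses, 0 had responses of the same sign in both, and 196 (12.3%) reached that p with neither virus. The background of the 2 responses differs in the same way. With the control virus 5386 genes (23.8%) had an unadjusted p under 0.05 for AA14 and 1 (0.00442%) passed after adjustment. With the cre virus 519 genes (2.29%) had such a p and 0 passed. These counts are from edgeR, and those of the other tools for the 2 responses are not reported here. The share of genes with a response only under the control virus depended on single libraries. It was 58.8% without cre_AA14 3, 59.3% without ctrl_vehicle 3, 82.5% without cre_vehicle 2, and 54.8% without ctrl_vehicle 3 and cre_AA14 1.

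The group that most often stood apart was ctrl_AA14. All 3 ctrl_AA14 libraries lay below the other 9 in 559 genes (2.47%) and above them in 388 genes (1.71%). For the other groups the numbers were 73 above and 82 below in ctrl_vehicle (0.323% and 0.362%), 31 and 34 in cre_vehicle (0.137% and 0.15%), and 47 and 41 in cre_AA14 (0.208% and 0.181%). Of the 1591 genes, 264 had ctrl_AA14 below all other libraries and 73 had it above. Each ctrl_AA14 library is rich in Malat1, and with the log2 level of Malat1 as a term in the fit, 732 genes had an unadjusted p under 0.05, of which 162 were among the 1591. Among genes of at least 1 CPM, the median GC content was 53.0% in the 1005 with a negative interaction, 48.3% in the 306 with a positive one, and 49.7% in all 16406.

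**Figure D2:**
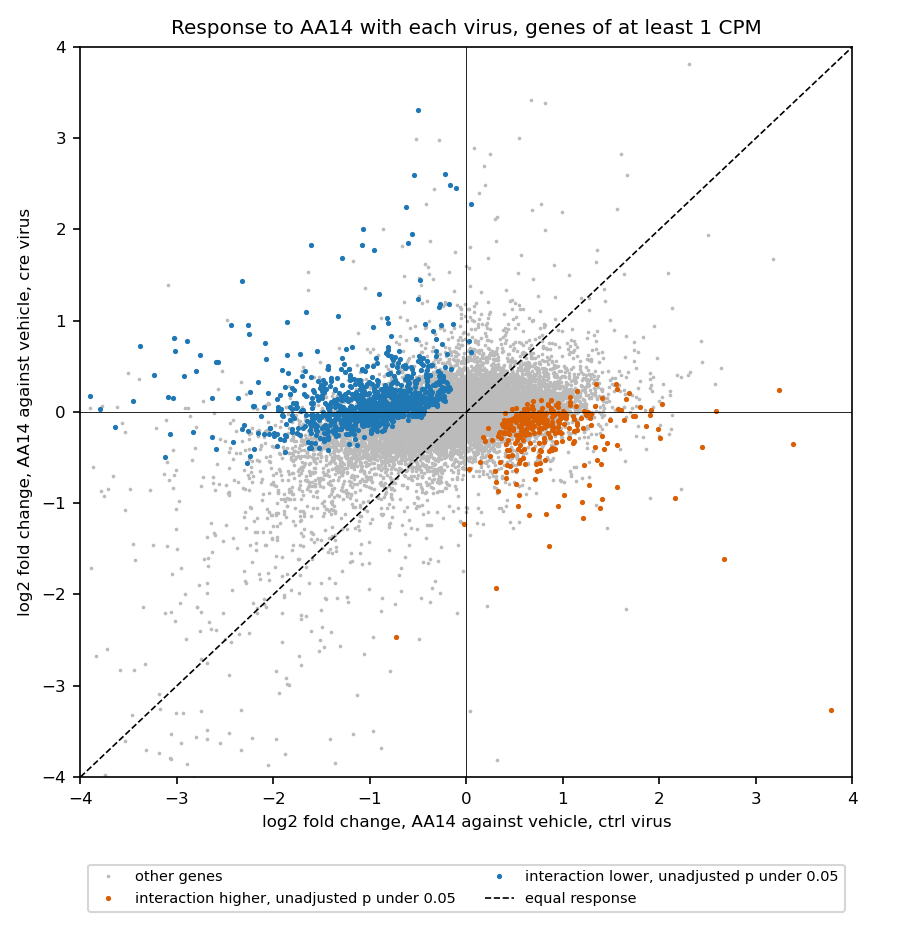
Log2 fold change of AA14 over vehicle with the control virus (horizontal) and with the cre virus (vertical), 1 point per gene of at least 1 CPM, coloured where the interaction had an unadjusted p under 0.05, with 82 of 16406 genes outside the axes and a dashed line where both responses are equal. Most coloured points spread along the horizontal axis and stay near 0 on the vertical one. Over all 22630 genes tested, including those below 1 CPM that are not drawn, 1248 of 1591 had a response under the control virus only.

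Fits that leave out each library in turn kept 371 genes (1.64%) at an unadjusted p under 0.05 in all 12 fits and in the fit of all libraries, 133 positive and 238 negative. Of these, 105 also had such a p with Malat1 as a term, 55 positive and 50 negative. The 10 genes of smallest p in each direction were among the 371, counting genes with an ordinary symbol and a mean of at least 1 CPM. None of the 20 passed after adjustment in edgeR with all libraries, with an adjusted p of 0.603 for Krcc1 and 0.631 for the other 19. Because they were selected by this p, their values are given as a description.

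Ptprd, a receptor-type protein tyrosine phosphatase of cell adhesion on chromosome 4 (75941238 to 78211961), had the smallest p among positive interactions. Its level was 44.8, 41.9 and 45.1 CPM (ctrl_vehicle), 81.1, 80.2 and 69.6 CPM (ctrl_AA14), 55.0, 57.3 and 43.9 CPM (cre_vehicle) and 39.3, 39.7 and 45.0 CPM (cre_AA14). The ctrl_AA14 libraries lay above all others, and the cre groups overlapped. The interaction was 1.14 (SE 0.19), from a log2 fold change of 0.81 (SE 0.14) with the control virus and -0.33 (SE 0.14) with the cre virus. It was 1.07 to 1.25 when any 1 library was left out and 1.14 with Malat1 as a term.

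Schip1, which encodes an adaptor that binds the tumour suppressor schwannomin (chromosome 3, 68064802 to 68626481), was also higher with AA14 under the control virus. It was at 40.9, 35.6 and 42.5 CPM (ctrl_vehicle), 61.3, 53.3 and 64.8 CPM (ctrl_AA14), 54.9, 52.2 and 46.1 CPM (cre_vehicle) and 40.7, 48.4 and 41.9 CPM (cre_AA14) (interaction 0.82, SE 0.19). The 2 control-virus groups did not overlap, which is so for 37.7% of all genes tested, and the cre groups overlapped at 46.1 and 48.4 CPM. Unlike for Ptprd, ctrl_AA14 2 lay below cre_vehicle 1. Its exons overlap those of Iqschfp on the same strand, so its count is uncertain.

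Rbm20, an RNA-binding regulator of splicing known from the titin transcript of heart muscle (chromosome 19, 53677306 to 53867080), was at 24.1, 29.8 and 15.0 CPM in ctrl_vehicle and 55.2, 53.8 and 53.3 CPM in ctrl_AA14. In cre_vehicle it was at 29.2, 33.7 and 25 CPM and in cre_AA14 at 23.6, 35.3 and 27.0 CPM. The level with AA14 and the control virus was thus above every other library, and the cre groups covered one range (interaction 1.27, SE 0.34).

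Wrb, the endoplasmic reticulum receptor for insertion of tail-anchored proteins (chromosome 16, 96145407 to 96157852), differed mainly under the cre virus. In cre_vehicle it was at 28.1, 28.3 and 19.8 CPM, and the cre_AA14 libraries, at 5.05, 7.58 and 7.28 CPM, did not overlap with them, as in 5.86% of all genes tested. With the control virus it was at 18.5, 19.5 and 12.6 CPM under vehicle and 28.1, 25.7 and 8.78 CPM under AA14, which overlap. The interaction was 2.24 (SE 0.53), with a log2 fold change of -1.93 (SE 0.38) in cre libraries.

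Skida1, a gene of chromosome 2 (18040676 to 18049051), was on either of 2 levels. It was at 0.177, 0.227 and 0.220 CPM in ctrl_vehicle and 0.241 CPM in cre_vehicle 2, while the other 8 libraries had 3.72 to 6.38 CPM. The interaction of 4.49 (SE 1.1) therefore rests on which libraries fell on the low level. It passed in edgeR without cre_vehicle 2 (adjusted p = 0.000747), without both libraries with oligodendrocyte markers above 5 (0.00221), without those above 4 (0.0129), and in DESeq2 with all libraries (0.0147), and reached an adjusted p of 1 with Malat1 as a term. Of the 1311 genes of at least 1 CPM at an unadjusted p under 0.05, 12 (0.915%) had levels split in this way by at least 4-fold, against 146 of 16406 (0.89%) among all genes of that level and 153 of 22630 (0.676%) among all genes tested.

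The remaining genes of smallest p with a positive interaction were the zinc finger genes Zfp672 (0.94, SE 0.23) and Zfp454 (1.09, SE 0.31), Ppih, a cyclophilin of the spliceosome (2.82, SE 0.74), and Chrna1, the muscle acetylcholine receptor alpha subunit (1.72, SE 0.49). For Ppih the ctrl_AA14 libraries themselves ran from 3.13 to 10 CPM, against 0.700 to 2.03 CPM in ctrl_vehicle and 1.20 to 3.48 CPM in the 6 cre libraries. For Chrna1 they ran from 2.90 to 5.57 CPM, and cre_vehicle reached 4.08 CPM.

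Krcc1, a gene of chromosome 6 (71271677 to 71285319), had the smallest p among negative interactions. Its level was 62.4, 54.0 and 36.6 CPM (ctrl_vehicle), 16.3, 17.6 and 18.8 CPM (ctrl_AA14), 18.2, 15.2 and 19.0 CPM (cre_vehicle) and 19.6, 18.2 and 19.8 CPM (cre_AA14). As for Gm47308, ctrl_vehicle stood apart from the other 9 libraries, which all lay between 15.2 and 19.8 CPM. Exons of Krcc1 overlap the microRNA gene Mir8112 on the same strand, so its count is uncertain. The interaction was -1.67 (SE 0.27) and ran from -1.86 to -1.50 without any 1 library. It was called by DESeq2 (adjusted p = 2.16e-05) and by edgeR without ctrl_vehicle 3 (adjusted p = 0.0332), and the adjusted p of the other alternatives ran from 0.0507 in limma-voom to 0.957.

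Actr3, the Arp3 subunit of the complex that starts branched actin filaments (chromosome 1, 125392905 to 125435727), was lowest in ctrl_AA14. It was at 109, 114 and 125 CPM (ctrl_vehicle), 58.2, 56.2 and 52.1 CPM (ctrl_AA14), 79.0, 85.4 and 114 CPM (cre_vehicle) and 131, 84.1 and 111 CPM (cre_AA14). The ctrl_AA14 libraries lay below every other library. Within the cre groups the lowest libraries were cre_vehicle 1 and cre_AA14 2, those rich in Malat1. The interaction was -1.29 (SE 0.26), and -0.83 with Malat1 as a term.

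Dab2ip, a GTPase-activating protein for Ras (chromosome 2, 35558266 to 35730994), showed the same order of libraries. It was at 48.8, 69.8 and 60.6 CPM (ctrl_vehicle), 24.8, 21.7 and 19.6 CPM (ctrl_AA14), 34.5, 51.3 and 51.1 CPM (cre_vehicle) and 46.8, 35.5 and 49.8 CPM (cre_AA14) (interaction -1.39, SE 0.29). Again ctrl_AA14 lay below the other 9 libraries, and cre_vehicle 1 and cre_AA14 2 were the lowest of their groups. With Malat1 as a term the interaction was -0.99.

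Otulin, the protease that removes linear ubiquitin chains (chromosome 15, 27542635 to 27630693), was at 25.3, 25.9 and 24.0 CPM in ctrl_vehicle and 12.3, 13.5 and 9.31 CPM in ctrl_AA14. In cre_vehicle it was at 16.5, 19.7 and 24.8 CPM and in cre_AA14 at 28.6, 16.9 and 27.2 CPM. The lowest library of each cre group was again the one rich in Malat1 (interaction -1.36, SE 0.33, and -0.83 with Malat1 as a term). Slc35g1, a membrane protein of solute carrier family 35, had an interaction of -1.13 (SE 0.29) with the same order, at 7.91 to 8.79 CPM in ctrl_AA14 and 9.93 to 16.8 CPM in the other libraries.

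Lpcat2, an acyltransferase of lysophosphatidylcholine and platelet-activating factor (interaction -1.34, SE 0.33), was at 4.53 to 4.87 CPM in ctrl_AA14 and 5.38 to 11.4 CPM in the rest. Usp27x, a deubiquitinase, had a larger interaction of -3.84 (SE 0.88) with a wide spread, at 9.59 to 22.7 CPM in ctrl_vehicle, 0.957 to 2.72 CPM in ctrl_AA14, 2.69 to 7.37 CPM in cre_vehicle and 4.67 to 18.4 CPM in cre_AA14. For Actr3, Dab2ip, Otulin, Slc35g1 and Lpcat2 the ctrl_AA14 libraries thus lay below all others, whereas for Krcc1 the ctrl_vehicle libraries stood apart.

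Pcdhgb4, a gamma-protocadherin of cell adhesion, was at 5.62, 185 and 75.3 CPM in ctrl_vehicle and at 1.14 to 5.76 CPM in the other 9 libraries. Its interaction of -6.35 (SE 1.18) thus rests on ctrl_vehicle 2 and ctrl_vehicle 3. It passed in edgeR without ctrl_vehicle 1 (adjusted p = 0.000669) and in DESeq2 (1.40e-06), and the other alternatives had an adjusted p of 0.212 to 1. Pcdhgb6 of the same cluster was at 13.3 to 22.6 CPM in ctrl_vehicle, 4.26 to 5.38 CPM in ctrl_AA14, and 8.11 to 22.0 CPM in the cre libraries (interaction -1.87, SE 0.49). The genes of this cluster share their last exons, so their counts are uncertain.

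**Figure D3:**
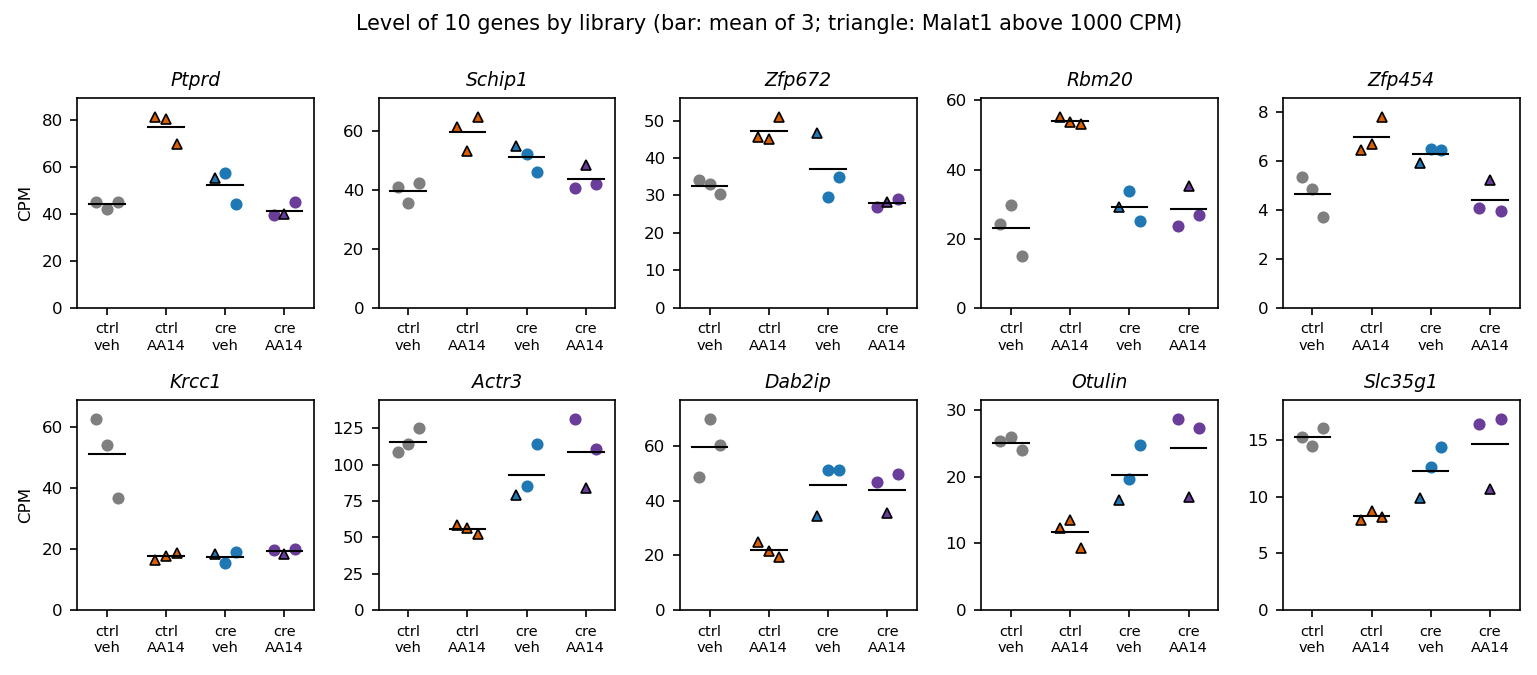
CPM (vertical) in each of the 12 libraries (points) by group (horizontal) for 5 genes with a positive and 5 with a negative interaction, with a bar at the mean of 3 libraries and triangles for the 5 libraries with Malat1 above 1000 CPM. The ctrl_AA14 points lie above all others for Ptprd and Rbm20 and below all others for Actr3, Dab2ip, Otulin and Slc35g1, while Krcc1 is high in ctrl_vehicle only.

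Responses of opposite sign with the 2 viruses, each at an unadjusted p under 0.05, were found in 5 of the named genes. Among them, Ptprd, Zfp672 and Zfp454 had higher values with AA14 under the control virus and lower values with AA14 under the cre virus. For Zfp672 the levels were 34.2, 33.0 and 30.3 CPM (ctrl_vehicle), 45.7, 44.9 and 50.9 CPM (ctrl_AA14), 46.7, 29.5 and 34.9 CPM (cre_vehicle) and 26.8, 28.3 and 28.9 CPM (cre_AA14). Neither pair of groups overlapped, and cre_vehicle 1 was as high as ctrl_AA14. Of all genes tested, 37.7% had no overlap with the control virus and 5.86% had none with the cre virus. Rps4l, annotated as a transcribed processed pseudogene and close in sequence to a ribosomal protein gene, had the opposite order. It was at 34.5, 30.2 and 41.9 CPM (ctrl_vehicle), 20.8, 23.2 and 20.8 CPM (ctrl_AA14), 19.0, 28.1 and 28.0 CPM (cre_vehicle) and 43.7, 25.7 and 35.9 CPM (cre_AA14), so that its cre groups overlapped. Reads from ribosomal protein copies can be shared, so that count is uncertain.

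These 20 genes were examined under 3 other settings as well. With Malat1 as a term 19 of the 20 had an unadjusted p under 0.05, the exception being Ppih (0.0618). Without ctrl_vehicle 3 and cre_AA14 1 all 20 did, and all 20 did with a GC trend term. The 20 were selected by p in these same libraries, so this is a description. Of all 1591 genes, 162 kept such a p with Malat1 as a term, 434 without those libraries and 395 with the GC trend term. DESeq2 called 26 genes (0.115%). Among those with an ordinary symbol and a mean of at least 1 CPM were Wrb, Actr3, Dab2ip, Ptprd, Usp27x, Krcc1, Skida1 and Pcdhgb4.

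DESeq2 also called Epo and Trpc2, whose counts were 0 in many libraries. Epo, the gene of erythropoietin, had 0 counts in ctrl_vehicle 1, in all ctrl_AA14 libraries, in cre_vehicle 1, cre_vehicle 3 and cre_AA14 2, and 192 to 439 counts in the other 5. Trpc2, a cation channel gene of pheromone sensing, had 323 to 468 counts in ctrl_AA14 1, ctrl_AA14 3, cre_vehicle 1 and cre_AA14 2 and 0 in the other 8. Both genes were absent or present within single groups. Exons of Epo overlap Gnb2 and those of Trpc2 overlap neighbours on the same strand, so that these counts are uncertain and no fold change is given here.

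Among abundant genes, the largest interactions came from single libraries or from wide spread within groups. Prx, a myelin protein of Schwann cells in peripheral nerve, was at 141 CPM in ctrl_vehicle 3 and at 0.718 to 2.79 CPM in the other 11 libraries. Its interaction of -5.85 (SE 1.77) was -1.54 without that library. Avp, the vasopressin transcript of hypothalamic axons in the posterior lobe, was at 293 CPM in the same library and at 1.62 to 24.6 CPM in the others, and its interaction was -6.18 (SE 1.79) with all libraries and -3.32 without it. Pcdhgb8 was at 58.3 CPM in ctrl_vehicle 1, 136 CPM in cre_AA14 3 and 1.05 to 4.32 CPM elsewhere.

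The positive interactions of abundant genes named here kept an unadjusted p under 0.05 without any 1 library. Napg, the gamma form of the SNAP adaptor of membrane fusion, was at 32.8, 14.8 and 23.1 CPM (ctrl_vehicle), 55.6, 55.5 and 76.8 CPM (ctrl_AA14), 56.8, 70.6 and 17.7 CPM (cre_vehicle) and 43.2, 15.0 and 16.5 CPM (cre_AA14) (interaction 2.37, SE 0.73). The control-virus groups did not overlap, as in 37.7% of all genes tested, and the cre groups did. Apc, a scaffold that restrains Wnt signalling (2.33, SE 0.73), was at 65.1 to 85.6 CPM in cre_vehicle and 17.5 to 38.0 CPM in cre_AA14, while its control-virus groups overlapped. Cipc, a repressor of the clock protein CLOCK (2.36, SE 0.84), was at 47.5 to 72.3 CPM in cre_vehicle and 19.3 to 39.8 CPM in cre_AA14, while its control-virus groups overlapped. Bola1, a mitochondrial iron-sulfur protein (2.58, SE 0.91), lay on 2 levels, at 3.06 to 5.28 CPM in ctrl_vehicle, cre_vehicle 2 and cre_AA14 3 and 18.4 to 25.1 CPM in the other 7 libraries.

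None of the hormone genes had an interaction at an unadjusted p under 0.05 in edgeR. Growth hormone (Gh) had 90441, 176348 and 116909 CPM (ctrl_vehicle), 188710, 212939 and 241856 CPM (ctrl_AA14), 211643, 110913 and 164392 CPM (cre_vehicle) and 99590, 218024 and 203886 CPM (cre_AA14). The control-virus groups did not overlap, which is so for 37.7% of all genes tested. The cre groups did overlap, as in all but 5.86% of genes, and the highest library of each cre group was the one rich in Malat1. The interaction was 0.65 (SE 0.46, unadjusted p = 0.184) and -0.08 with Malat1 as a term. Without a single library it ran from 0.36 to 0.95.

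Thyrotropin beta (Tshb) was at 277, 305 and 146 CPM (ctrl_vehicle), 464, 539 and 386 CPM (ctrl_AA14), 493, 192 and 245 CPM (cre_vehicle) and 360, 435 and 248 CPM (cre_AA14). Its highest cre libraries were likewise cre_vehicle 1 and cre_AA14 2, and the interaction was 0.76 (SE 0.52), or -0.36 with Malat1 as a term. The other products of cells in which Cga is active had smaller values, at 0.40 (SE 0.38) for Fshb, 0.29 (SE 0.30) for Lhb and 0.31 (SE 0.40) for Cga itself, all of which were negative with Malat1 as a term, at -0.27, -0.16 and -0.40. Prolactin (Prl) had an interaction of -0.67 (SE 0.57), which was 0.14 with Malat1 as a term, and the corticotropin precursor Pomc one of -0.90 (SE 0.58), which stayed negative at -0.34. A response of these genes that differed by virus was not detectable at this spread between libraries.

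Gpr101, the target of cre, was at 1.65, 1.22 and 16.1 CPM (ctrl_vehicle), 3.30, 2.20 and 6.60 CPM (ctrl_AA14), 2.43, 4.29 and 1.29 CPM (cre_vehicle) and 2.57, 2.43 and 0.901 CPM (cre_AA14). All groups overlapped. The interaction of -0.21 (SE 1.25) was 1.93 without ctrl_vehicle 3, the library with the most Avp.

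**Figure D4:**
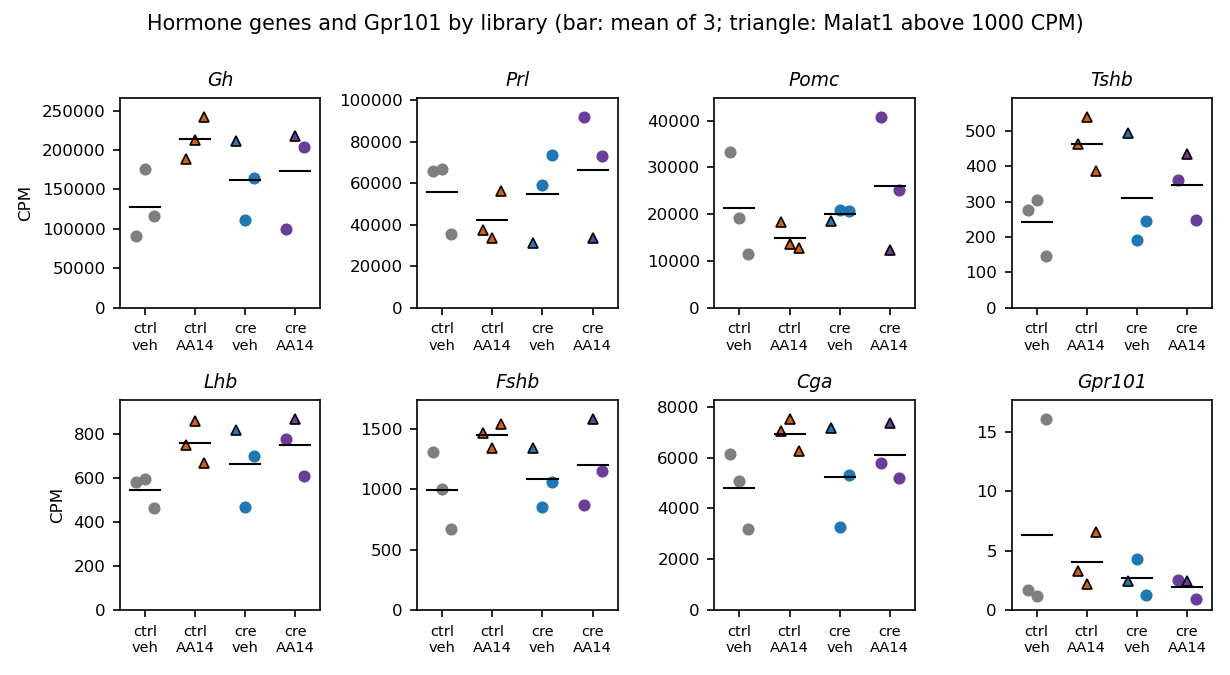
CPM (vertical, from 0) of 7 hormone genes and Gpr101 in each of the 12 libraries (points) by group (horizontal), with a bar at the mean of 3 libraries and triangles for the 5 libraries with Malat1 above 1000 CPM. Within the cre groups the triangles of Gh and Tshb lie above the circles of the same group, as the ctrl_AA14 libraries lie above ctrl_vehicle.

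The genes of the pathway below Gpr101 leaned to negative interactions. Over the 31 gene lists examined, 457 genes were tested, of which 0 passed in edgeR, 53 (11.6%) had an unadjusted p under 0.05, 1 (Actr3) passed in DESeq2 and 0 passed in limma-voom. In the list of Gs pathway components 20 of 23 interactions were negative, with a median of -0.50 and 5 at an unadjusted p under 0.05, all negative. The median over the 22630 genes was -0.03, and 52.3% of their interactions were negative. An unadjusted p under 0.05 was reached by 7.03% of them, and by 4.86% with a negative interaction. These shares are the background for each of the lists. With Malat1 as a term the list's median was 0.02.

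Adcy5, an adenylyl cyclase that Gs activates, was at 124, 135 and 166 CPM (ctrl_vehicle), 71.3, 73.8 and 57.6 CPM (ctrl_AA14), 76.1, 140 and 140 CPM (cre_vehicle) and 111, 78.5 and 133 CPM (cre_AA14). The ctrl_AA14 libraries were the lowest, followed by the cre libraries rich in Malat1 (interaction -0.93, SE 0.36, and -0.13 with Malat1 as a term). Gnb1, a G protein beta subunit (-0.99, SE 0.37), and Adcy9, another adenylyl cyclase (-1.01, SE 0.44), were likewise closer to 0 with that term, at -0.24 and -0.34.

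Among 16 genes that cyclic AMP is known to induce, 14 interactions were negative and 0 reached an unadjusted p under 0.05, with a median of -1.12. Without cre_AA14 1 the median was 0.15. Fosb, a subunit of the AP-1 factor, was at 305 CPM in cre_AA14 1 and 2.75 to 22.8 CPM in the other 11 libraries, and its interaction of -3.27 (SE 1.73) was 0.14 without it. Pde4d, a phosphodiesterase that breaks down cyclic AMP, had an interaction of -1.14 (SE 0.60), and 0.04 with Malat1 as a term.

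Among receptors for hypothalamic and feedback hormones, 7 of 12 interactions were negative, with a median of -0.21 and 1 at an unadjusted p under 0.05. That 1 was Sstr1, a receptor for somatostatin, at 38.2, 43.8 and 31.5 CPM (ctrl_vehicle), 6.75, 6.73 and 5.24 CPM (ctrl_AA14), 9.24, 51.6 and 44.3 CPM (cre_vehicle) and 31.7, 4.84 and 43.1 CPM (cre_AA14). The 5 low libraries were those rich in Malat1 (interaction -2.20, SE 0.96, and -0.08 with Malat1 as a term). Ghrhr, through which growth hormone-releasing hormone acts on somatotrophs, had the reverse order, with 242 to 316 CPM in those 5 libraries and 84.0 to 160 CPM in the other 7 (interaction 1.27, SE 0.58, and -0.20 with Malat1 as a term). Both genes thus followed the Malat1 state within the cre groups.

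Lineage factors had 10 of 15 negative interactions and 0 at an unadjusted p under 0.05 (median -0.38, and 0.06 with Malat1 as a term). Pou1f1, the factor of somatotrophs, lactotrophs and thyrotrophs, had 0.58 (SE 0.28), and Pitx1, a factor of the early pituitary, -1.14 (SE 0.58). With Malat1 as a term these were 0.08 and -0.12. In the growth hormone and insulin-like growth factor list 14 of 18 were negative and 3 reached that p. Its median was -0.34, and 0.04 with Malat1 as a term. Igfbp4 and Igfbp6, which bind insulin-like growth factors, had -1.87 (SE 0.76) and -1.39 (SE 0.55), and -0.03 and 0.11 with Malat1 as a term. Igfbp4 was at 18.9 to 29.8 CPM in the Malat1-rich libraries and 79.0 to 105 CPM elsewhere. Igf2 had -3.26 (SE 1.24) with 313 CPM in ctrl_vehicle 3, -1.02 without that library, and -0.14 with Malat1 as a term. In the list of hormone granules and exocytosis, Rab3b, a GTPase of secretory granules, was positive at 0.75 (SE 0.27) and Cpe, a carboxypeptidase that processes prohormones, negative at -0.96 (SE 0.43), 1 of 19 in each direction at that p. With Malat1 as a term Rab3b was at 0.23 and Cpe at 0.08.

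The promoter motif bound by CREB was searched on both strands in the windows from 250 bases before to 50 bases after each gene's start, in RefSeq sequences of GRCm38.p6. TGACGTCA, which is its own reverse complement, was in 10 of 256 genes with a positive interaction at an unadjusted p under 0.05 (3.91%), in 21 of 762 with a negative one (2.76%), and in 438 of 14084 tested genes with a window (3.11%). Over all 32851 windows the share was 1.79%. Both sets of genes at that unadjusted p, which are not calls, thus held the motif at a share close to that of all genes tested. Of 58 named genes with a window, 1 held it, Rab5a, the GTPase of early endosomes, whose interaction was -0.70 (SE 0.25). The 84 bases before its start are shown with the motif in capitals, 28 bases before the start (GRCm38.p6 chr17:53479150-53479233, plus strand).
Rab5a: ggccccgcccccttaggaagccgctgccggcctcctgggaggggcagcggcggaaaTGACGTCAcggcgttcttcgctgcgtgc

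Endosome genes and actin nucleators had mostly negative values. In the list of endosome and Rab11 recycling genes 16 of 17 interactions were negative, with a median of -0.31 and 3 at an unadjusted p under 0.05: Rab11a, Rab5a and Ehd1. Ehd1, an ATPase that shapes recycling endosomes, had -1.33 (SE 0.53), and was at 10.4 to 17.7 CPM in the 5 Malat1-rich libraries and 32.7 to 42.5 CPM in the other 7. In the list of Arp2/3 and actin nucleation genes 12 of 15 were negative (median -0.37) and 4 reached that p, among them Actr3, the Arp2/3 subunit Arpc5 (-0.78, SE 0.23) and its activator Wasf2 (-0.90, SE 0.36). The actin list was drawn up with the value of Actr3 known, and the endosome list includes Rab11a, whose exon holds the called Gm47308. With Malat1 as a term the medians of the endosome and actin lists were 0.03 and -0.06. Rab11a, Rab5a and Ehd1 were then at -0.37, -0.19 and -0.06, and Actr3, Arpc5 and Wasf2 at -0.83, -0.35 and -0.06.

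The 13 protein genes of the mitochondrial genome all had positive interactions, with a median of 0.56 that ran from 0.46 to 0.66 without any 1 library and was 0.37 with Malat1 as a term. An unadjusted p under 0.05 was reached by 7 of the 13. They are read from shared long precursors and are therefore not separate measurements. For mt-Co2, a subunit of cytochrome oxidase, the levels were 2934, 2577 and 2468 CPM (ctrl_vehicle), 3982, 3771 and 3667 CPM (ctrl_AA14), 3526, 3153 and 2710 CPM (cre_vehicle) and 2698, 3463 and 2954 CPM (cre_AA14). The ctrl_AA14 libraries were above all others and the cre groups overlapped. The interaction was 0.56 (SE 0.19) for mt-Co2, 0.55 (SE 0.18) for the ATP synthase subunit mt-Atp6 and 0.51 (SE 0.18) for cytochrome b, mt-Cytb.

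The nuclear genes of the same chain had mixed signs. Of 30, 21 had negative interactions and 3 of them an unadjusted p under 0.05. The median of the 30 was -0.13, and 0.01 with Malat1 as a term. Sdhc, a subunit of succinate dehydrogenase, was at -1.25 (SE 0.44), and at -0.12 with that term. Its level was 30.3 to 36.8 CPM in the Malat1-rich libraries and 66.5 to 93.8 CPM elsewhere. Cytosolic ribosomal protein genes were negative in 39 of 40, with a median of -0.34, or -0.20 with Malat1 as a term, and 2 at that p. Rpl8 was at 567, 613 and 602 CPM (ctrl_vehicle), 466, 461 and 438 CPM (ctrl_AA14), 459, 568 and 669 CPM (cre_vehicle) and 786, 531 and 647 CPM (cre_AA14) (interaction -0.60, SE 0.24). Rpl10a had the same interaction of -0.60 (SE 0.24), but its control-virus groups overlapped. Ribosomal proteins have many near-identical copies, so these counts are uncertain.

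Genes of the unfolded protein response were positive in 17 of 20 (median 0.26), with 1 at an unadjusted p under 0.05. It was Herpud1, of endoplasmic reticulum-associated degradation, at 166 to 186 CPM in ctrl_AA14 and 81.8 to 111 CPM in ctrl_vehicle (interaction 0.92, SE 0.35, and 0.22 with Malat1 as a term). Nuclear-retained RNAs were positive in 9 of 9 (median 1.15) and genes of SR splicing factors in 14 of 16 (median 0.56). With Malat1 as a term these medians were -0.55 and -0.25. Srrm2, a spliceosome scaffold, had 0.90 (SE 0.39), and -0.07 with that term, and Srsf9, a member of the SR family, -0.97 (SE 0.40). Clock genes were negative in 10 of 16 (median -0.32, and 0.105 without cre_AA14 1), with 1 in each direction at an unadjusted p under 0.05. These were Per3 at 1.44 (SE 0.64) and Cry1 at -0.84 (SE 0.32), both repressors of the clock. With Malat1 as a term Per3 was at 0.01 and Cry1 at -0.58.

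Stress and inflammation genes had the most negative medians, and 1 library carried them. Immediate-early and stress genes were negative in 18 of 20 (median -2.06, and -0.12 without cre_AA14 1), with 5 at an unadjusted p under 0.05. Inflammation genes were negative in 12 of 13 (median -2.58, and 0.22 without cre_AA14 1), with 2 at that p. Atf3, a transcription factor induced by stress, reached 175 CPM in cre_AA14 1 and 0.758 to 3.59 CPM in the other 11 libraries. Ptgs2, the inducible cyclooxygenase, was at 57.1 CPM in that library and 0.263 to 0.95 CPM elsewhere, and Icam1, an adhesion molecule of inflamed endothelium, at 18.2 CPM and 1.48 to 3.31 CPM. Jun had -2.97 (SE 1.22) and -0.78 without that library. Jund, a related AP-1 subunit, was low in the Malat1-rich libraries, at 67.3 to 122 CPM against 231 to 446 CPM in the other 7 (interaction -1.66, SE 0.66, and -0.12 with Malat1 as a term).

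Extracellular matrix genes were negative in 16 of 17 (median -0.69, and 0.45 with Malat1 as a term), with 3 at an unadjusted p under 0.05. Fn1, fibronectin, was at 54.7 CPM in ctrl_vehicle 3 and 3.08 to 20.9 CPM in the others (interaction -3.14, SE 1.18, and -1.42 without that library), and Fbn1, fibrillin, had -1.07 (SE 0.47). Cell cycle genes were positive in 13 of 15 (median 0.49), with 0 at that p in edgeR, and interferon response genes in 10 of 17 (median 0.01), also with 0.

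Markers of other cells were high in single libraries of different groups, and their part in the results above was not tested. The mean log2 level of 12 oligodendrocyte markers was 6.18 in ctrl_vehicle 3 and in cre_vehicle 2, 4.41 in ctrl_AA14 1 and 1.26 to 2.81 in the other 9 libraries, and the median interaction of 1.16 ran from -1.99 to 5.71 when 1 library was left out. Neuron markers, with Avp and Oxt among them, were highest in ctrl_vehicle 3, at a mean of 6.82 against 2.33 to 5.51 in the others, with Oxt, the oxytocin transcript, at 105 CPM there and 4.62 to 32.1 CPM elsewhere. The median over 11 neuron markers was -0.68, and 0.48 without that library. Pituicyte markers, those of the glia of the posterior lobe, had a median of -0.80 over 8, and 0.13 without it, with Nkx2-1 at -1.51 (SE 0.57) and Vcan, a matrix proteoglycan, at 1.00 (SE 0.36).

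Lymphocyte markers were positive in 10 of 12 (median 0.71), with 2 at an unadjusted p under 0.05. Jchain, the joining chain of secreted antibodies, was at 9.38 to 11.7 CPM in ctrl_AA14 1, ctrl_AA14 2 and cre_vehicle 1 and at 0.110 to 3.30 CPM in the other 9. Erythroid genes were positive in 5 of 5 (median 1.72, and 1.69 with Malat1 as a term), with 0 at that p. Hbb-bs, a beta globin, was at 438, 1235 and 580 CPM (ctrl_vehicle), 1306, 1959 and 1168 CPM (ctrl_AA14), 1009, 2119 and 2221 CPM (cre_vehicle) and 291, 1398 and 1479 CPM (cre_AA14), with cre_AA14 1 the lowest of the 12.

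Macrophage markers were negative in 11 of 11 (median -0.52, and -0.33 with Malat1 as a term), with 0 at an unadjusted p under 0.05. C1qa, a complement chain of resident macrophages, was at 34.4 to 53.0 CPM in ctrl_vehicle, 20.4 to 33.3 CPM in ctrl_AA14 and 27.4 to 39.9 CPM in the cre libraries (interaction -0.71, SE 0.33). Stem and folliculostellate markers were negative in 8 of 12 (median -0.47), with Cyp2f2, a cytochrome P450, the 1 gene at that p, positive at 0.67 (SE 0.22). Mural and fibroblast markers were negative in 9 of 11 (median -0.60, and 0.01 without ctrl_vehicle 3), endothelial markers in 5 of 11 (median 0.07), and skeletal muscle genes in 3 of 10 (median 0.54), with 0 at that p in each.

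**Figure D5:**
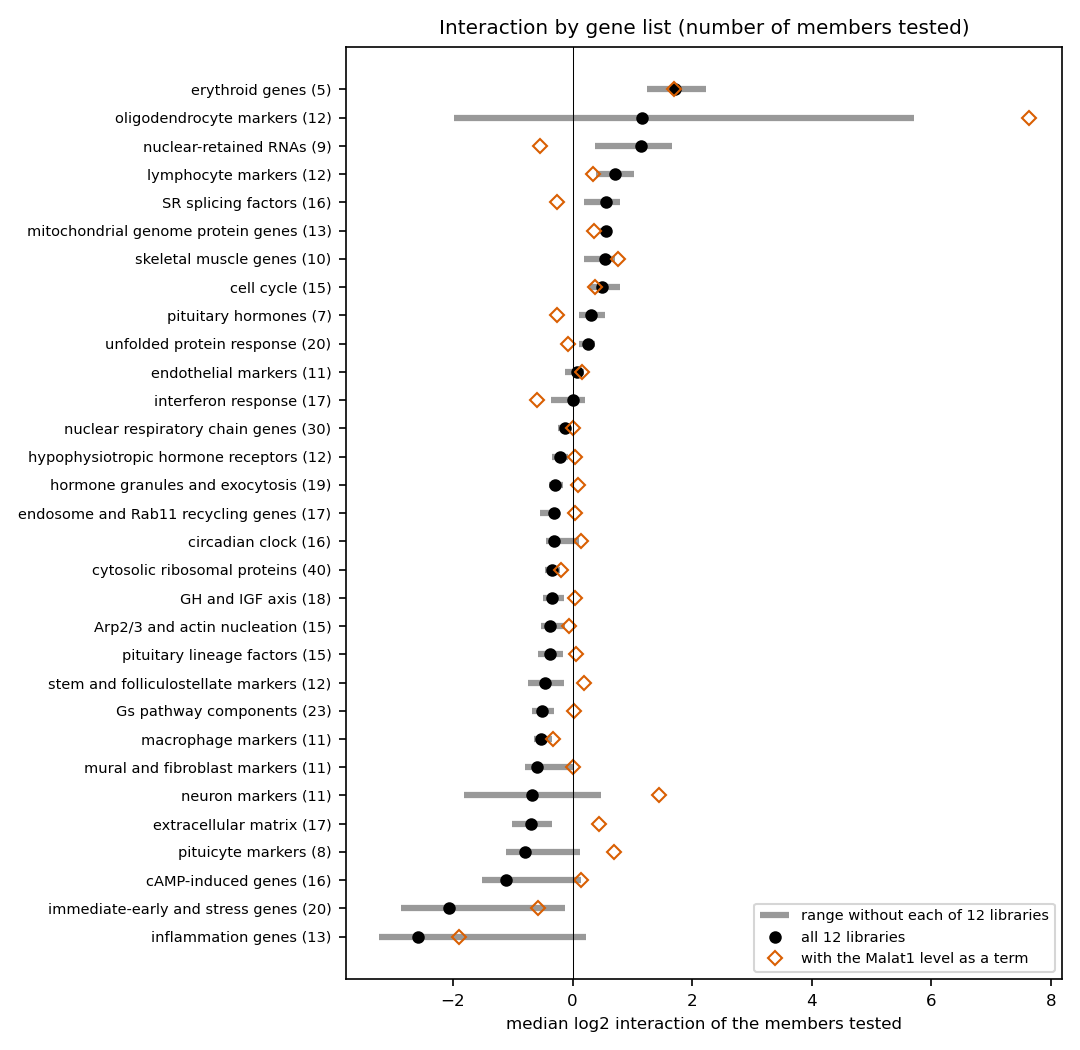
Median log2 interaction (horizontal) of the tested members of each of 31 gene lists (vertical), with all libraries (black points), the range when each of 12 libraries is left out (grey bars) and with the Malat1 level as a term (open diamonds). The medians of stress, inflammation, oligodendrocyte and neuron lists span the widest ranges, while that of the mitochondrial genome stays between 0.46 and 0.66.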

How the data were processed

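Bulk RNA sequencing was done on 12 libraries. The authors deposited raw counts of reads per gene, in whole numbers, for 55421 gene IDs in each library, of which 55154 matched a symbol. IDs without one held at most 0.0135% of a library. Per the labels' protocols, TRIzol RNA was sequenced as read pairs and mapped with HISAT2. Counting with featureCounts 1.5.0-p3 on GRCm38, and DESeq 1.8.3, are named per the submitters' processing notes. Which annotation release and strand setting were used, and how reads shared by genes were assigned, is not given in the sources used here. Counts of overlapping, antisense and near-identical genes are therefore uncertain. Coordinates are from GENCODE for GRCm38, and promoters are from RefSeq.

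Genes were filtered with filterByExpr, which left 22630, and scaled with TMM. The interaction was tested with edgeR 4.0.16 (R 4.3.3) quasi-likelihood F tests on a model with 1 mean per group, with Benjamini-Hochberg adjustment over all genes at 0.05. The SE is the absolute log2 value divided by the square root of F. The residual degrees of freedom were 8, the common biological coefficient of variation was 0.445, and the median SE of an interaction among genes of at least 1 CPM was 0.37. Levels of lists are means of log2(CPM + 0.5), the pseudocount used for Gpr101 as well. Gpr101 was compared by an exact permutation test. Lists are described by counts and medians, with no set test.

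Named genes were, with an ordinary symbol and at least 1 CPM, the 10 of smallest p per direction, the 5 of largest interaction per direction among genes at an unadjusted p under 0.05 and at least 10 CPM, those with opposite responses, those called by DESeq2 1.42.0, the hormone genes and Gpr101, and up to 3 members of each of 31 lists, in order of p. Genes past the adjusted threshold were always named. The text gives part of these, and some genes that the rule names are not reported here. The comparison, members and lists were chosen with earlier results of these data known. Alternatives were other size factors, other low-count filters, DESeq2, limma-voom (limma 3.58.1), terms for Malat1, GC trend and replicate number, and fits without single libraries or without those rich in oligodendrocyte markers. The edgeR steps were tested on simulated counts.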

Additional observations from a re-analysis of the deposited data

Results flagged for a closer look

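Gm47308 was singled out because its response to AA14 differed between the control virus and the cre virus by the test of that difference itself. The interaction was 7.04 on the log2 scale (edgeR adjusted p = 4.36e-05, with the alternatives between 9.08e-21 and 0.0507). It was higher in 3 of 3 ctrl_AA14 libraries than in any ctrl_vehicle library, and the cre groups overlapped. The control-virus groups do not overlap, in either direction, in 37.7% of all genes tested. Its 107 bases lie inside an exon of Rab11a, whose own interaction was -0.63.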

How the results depend on the processing

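The count of 1 called gene was 26 in DESeq2, 0 in limma-voom (with 3130 genes at an unadjusted p under 0.05), 2 with Malat1 as a term, 3 with the replicate block and GC trend together, 3 without the libraries whose oligodendrocyte markers were above 5 or above 4, and 1 to 3 without each library. The count of 1591 genes was 1004 with the replicate block, 679 with the GC trend, 585 with both, 732 with Malat1, 3130 in limma-voom, 922 without ctrl_vehicle 3 and cre_AA14 1, and 830 (without cre_AA14 1) to 4059 (without cre_AA14 2) without each library, and leaving out ctrl_AA14 3 gave 866, cre_vehicle 1 gave 890, cre_AA14 3 gave 1050 and cre_vehicle 2 gave 2399. The share with a response under the control virus only was 58.8% to 82.5% without each library, 69.1% and 66.4% without the libraries with oligodendrocyte markers above 5 and above 4, and 54.8% without ctrl_vehicle 3 and cre_AA14 1. The cause was not tested. The fits without both those libraries and with the threshold of 4 were chosen after seeing the data.

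Replicate numbers did not pair the libraries: of 18 same-numbered pairs 5 correlated above 0.1 (mean r -0.09), and 1 of 12 libraries was closest to its own number. Of 2208 values of 85 named genes under the alternatives, 2158 kept their direction and side of the threshold, 33 changed sign, 16 newly passed and 1 was lost (Gm47308 in limma-voom). With Malat1 as a term the signs changed for Gh (-0.078), Prl (0.14), Tshb (-0.36), Lhb (-0.16), Fshb (-0.27), Cga (-0.40), Gpr101 (0.83), Ghrhr (-0.20), Pde4d (0.042), Cpe (0.079), Igfbp6 (0.11), Fn1 (0.35), Oxt (0.24) and Srrm2 (-0.071). With the GC trend they changed for Fshb (-0.10), Cga (-0.12) and Gpr101 (0.77), and with GC trend and replicate block for Fshb (-0.10), Cga (-0.10), Gpr101 (0.86) and Ptgs2 (0.22). The fitted values of Trpc2, which had 0 counts in 8 libraries and whose sign and size are therefore no measure of a fold change, were -2.42 with Malat1 as a term and -2.69 with GC trend and replicate block. Gpr101 was at 0.070 with the replicate block, 1.38 in limma-voom, 1.44 and 1.57 without the libraries with oligodendrocyte markers above 5 and 4, 2.22 without ctrl_vehicle 3 and cre_AA14 1, and -0.74 to 1.93 without each library. Fosb was at -3.82 to 0.14 without each library, the latter without cre_AA14 1. The Gpr101 log2 difference between cre and control virus was -0.88 to -0.23 without each library.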
